A study of Mus musculus with 4 samples.

Results

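The p200 (Ifi200) family is a cluster of related interferon-inducible genes on mouse chromosome 1, and 9 of them are described here across 4 single-cell RNA libraries of CD8+ T cells: Ifi203, Ifi204, Ifi206, Ifi207, Ifi208, Ifi209, Ifi213, Ifi214 and Aim2. They were taken by symbol, without regard to their values, and all 9 were found among the 32285 genes measured. In cells treated with butyrate, Ifi213, Ifi206, Ifi203, Ifi208, Ifi214 and Ifi209 were lower than in control cells, with log2 fold changes between -2.71 and -1.26. Aim2, which lies in the same cluster, was higher in butyrate cells (log2 fold change 0.37), and so was the scarce Ifi204, a call that 10 of 13 alternative settings kept. Ifi207 was practically undetected in either group.

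Splenocytes of gBT-I.CD45.1 tg mice, whose CD8+ T cells carry a transgenic receptor for a herpes simplex virus glycoprotein B peptide, were activated with peptide-pulsed B6 splenocytes and 6 µg LPS. Daily additions of human IL-2, at 12.5 U/ml, began on day 2. Butyrate cultures received 0.5 mM sodium butyrate, a short-chain fatty acid that inhibits histone deacetylases, from day 3 to day 5. Control cultures received PBS. On day 6, live cells positive for CD8 and Vα2 were sorted for capture with a 10x 3′ droplet method. Each of 2 mice gave 1 butyrate and 1 control culture, so each group held 2 libraries. Replicate 1 is mouse 2 and replicate 2 is mouse 3 of the labels. All cells of both groups had been activated in the presence of LPS and grown in IL-2, all libraries belonged to batch 1, and the cells share 1 transgenic receptor. No source used here gives the ages of the mice.

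Proteins of this family, also called PYHIN or HIN-200 proteins, typically pair an N-terminal pyrin domain, which binds other pyrin domains, with 1 or more C-terminal HIN domains, which bind DNA. Many of their genes are induced by type I interferon. Aim2 detects double-stranded DNA in the cytosol and recruits the adaptor Pycard (ASC) and caspase-1 to form an inflammasome. Ifi204 is a mouse relative of human IFI16 and has been placed upstream of STING, the adaptor encoded by Tmem173. Individual functions of Ifi206, Ifi207, Ifi208, Ifi209, Ifi213 and Ifi214 are less well defined.

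The members span chr1:173350879-173942672 in GRCm38 (GENCODE M21), a stretch of 591.794 kb. Aim2 lies at the proximal end on the plus strand and Ifi203 at the distal end on the minus strand. Because the members arose by duplication, their promoters resemble each other, and the stretch around a shared interferon-response-type element is shown for 5 of the 6 members that were lower and for the neighbouring family gene Mndal. Sequences are from RefSeq (GRCm38.p6), on the strand of each gene, and capitals mark the element GAAATCGAAA.
Ifi213: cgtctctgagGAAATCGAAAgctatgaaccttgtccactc
Ifi206: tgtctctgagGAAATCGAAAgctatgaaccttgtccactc
Ifi203: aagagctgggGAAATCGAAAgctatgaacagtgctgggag
Ifi208: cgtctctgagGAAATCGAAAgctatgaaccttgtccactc
Ifi214: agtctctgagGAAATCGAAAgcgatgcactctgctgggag
Mndal: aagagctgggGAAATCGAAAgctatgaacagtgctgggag
The Ifi213 window lies at chr1:173599316-173599355 (minus strand), that of Ifi206 at chr1:173491329-173491368 (minus), that of Ifi203 at chr1:173942498-173942537 (minus), that of Ifi208 at chr1:173673597-173673636 (plus), that of Ifi214 at chr1:173536007-173536046 (minus) and that of Mndal at chr1:173880194-173880233 (minus). The Ifi208 window was identical to that of Ifi213 at all 40 bases, and the Ifi206 window at 39 of them. Ifi214 matched the Ifi213 window at 28 bases and Ifi203, whose window belongs to the second of its 2 annotated starts, at 25.

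The same element was searched on both strands in the window from 250 bases before to 50 bases after the annotated starts of all 27025 genes with an entry. An entry existed for 8 of the 9 members, all but Ifi204. The exact element was found in 16 genes (0.0592%), of which 7 lie in the p200 cluster: Ifi203, Ifi206, Ifi207, Ifi208, Ifi213, Ifi214 and Mndal. Its letters had been read from the Ifi213 window itself. A match in Ifi213 was thus fixed beforehand, and duplicated members resemble that window, so the count is a description and tests nothing. The looser form GAAANNGAAA, which contains the exact one, was found in 3.99% of genes and in the same 6 members. TTCNNNGAA, the form bound by STAT dimers, was found in 9.55% of genes and in no member. The Aim2 window, at chr1:173420354-173420653, held no match to any of the 3 forms. It lies within the M21 span of Aim2, whose start at chr1:173350879 was not searched. Ifi209 had no exact match, and its closest stretch is shown with the differing base inside the capitals.
Ifi209: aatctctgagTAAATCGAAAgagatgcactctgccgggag
This stretch lies at chr1:173630770-173630809 (plus strand) and carries the single substitution G1T, counted from 1 at the element's 5′ end; it matched the Ifi214 window at 36 of 40 bases. A match of letters is a description and says nothing on binding. Outside the cluster, 9 genes held the exact element and 5 of them could be tested. Ddx58, Parp11, Pnrc1 and Ripk1 were lower in butyrate cells, with log2 fold changes of -0.71, -0.78, -0.88 and -0.61, and Serpinb6a (-0.04) did not pass. Of all 13487 genes tested, 35.7% were lower. Whether the element goes with a decrease was not tested.

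Counts of unique molecular identifiers (UMIs, each standing for 1 captured RNA molecule) were summed over the kept cells of each library and compared with edgeR's quasi-likelihood test. An adjusted p (Benjamini-Hochberg over all genes tested) under 0.05 counted as passing. Libraries held 76522004 and 74844548 UMIs in butyrate and 64388093 and 74891790 UMIs in control, and 2560 and 2664 butyrate cells and 2059 and 2632 control cells were kept. Median depth was 24816 and 23627.5 UMIs per butyrate cell, against 21793 and 20494 UMIs per control cell. The share of mitochondrial UMIs had a median of 3.93 and 4.13% in butyrate cells and 4.89 and 4.91% in control cells. Between 1 and 6 cell barcodes were shared by any pair of libraries. Levels are given as CPM (UMIs of a gene scaled to a common library size), adjusted by the trimmed mean of M values (TMM). A sum over cells does not separate fewer expressing cells from less RNA per cell. The shares of cells with a UMI, given further on, do not separate them either at low counts. The p-values measure the spread between these cultures of 2 mice.

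The treatment changed a large part of the transcriptome. Of 13487 genes tested, 36.0% were higher and 35.7% lower in butyrate cells, so passing the test is common, and the size of a change says more than its call. With library totals alone as the scaling, 3395 genes were higher and 6710 lower in place of 4861 higher and 4818 lower. Of the 9 members, 8 had enough counts to be tested, of which 6 were lower and 2 higher. The median log2 fold change of these 8 was -1.94, beside -0.0079 over all genes tested. A log2 fold change of -1 or less with a passing test was found for the same 6 members, and for 5.74% of all genes tested. The groups did not overlap for any of the 8 tested members, but this held for 85.9% of all genes tested and so sets the members apart little. For 6 members butyrate lay lower without overlap, as it did for 43.3% of all genes. All 9 members together summed to 79.0 and 88.0 CPM in butyrate libraries, against 208 and 211 CPM in control libraries.

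**Figure D1:**
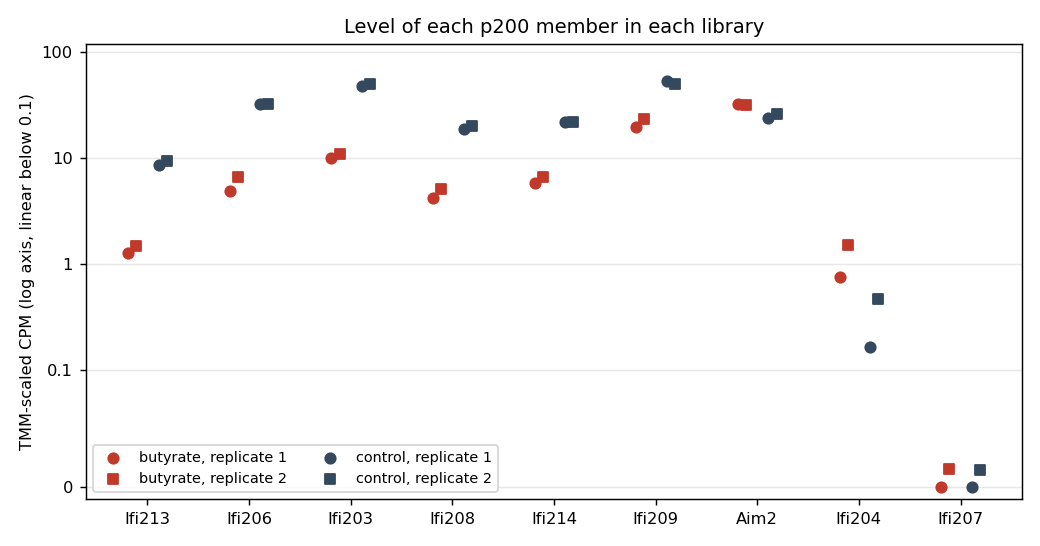
Level of each member in each library, as TMM-scaled CPM on a log axis that is linear below 0.1; circles are replicate 1 (mouse 2) and squares replicate 2 (mouse 3), with butyrate left of control. The butyrate libraries lie below the control libraries for Ifi213, Ifi206, Ifi203, Ifi208, Ifi214 and Ifi209 and above them for Aim2 and Ifi204.

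Ifi213 had the largest decrease among the members. It had 81 and 94 UMIs in the butyrate libraries, or 1.26 and 1.47 CPM, against 465 and 626 UMIs in the control libraries, or 8.54 and 9.31 CPM. Both butyrate libraries were thus far under both control libraries, and the log2 fold change was -2.71 (SE 0.11, edgeR adjusted p = 2.73e-11). In order of log2 fold change from the lowest, Ifi213 held rank 40 of the 13487 genes.

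Ifi206 was counted at 314 and 420 UMIs (4.88 and 6.56 CPM) in butyrate libraries, against 1769 and 2201 UMIs (32.5 and 32.7 CPM) in control libraries. The control libraries were nearly equal and the butyrate libraries were spread more widely, at a much lower level. The log2 fold change was -2.51 (SE 0.11, edgeR adjusted p = 1.83e-07), rank 52 from the lowest.

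Ifi203, the distal member, had 9.98 and 10.8 CPM in butyrate libraries and 48.6 and 50.0 CPM in control libraries, from 642 and 694 UMIs in butyrate and 2646 and 3359 UMIs in control. The difference between groups was many times the difference between mice. Its log2 fold change was -2.24 (SE 0.06, edgeR adjusted p = 1.47e-13), rank 78 from the lowest.

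Ifi208 had 4.16 and 5.14 CPM in butyrate libraries, against 18.9 and 20.1 CPM in control libraries (log2 fold change -2.07, SE 0.09, edgeR adjusted p = 1.18e-10). Ifi214 had 5.86 and 6.70 CPM in butyrate libraries, against 22.03 and 22.03 CPM in control libraries (log2 fold change -1.81, SE 0.07, edgeR adjusted p = 1.28e-11). For both genes, each mouse's butyrate culture was well under its own control culture. Ifi209 had the smallest of the 6 decreases, with 19.7 and 23.7 CPM in butyrate libraries and 53.7 and 50.5 CPM in control libraries. Its log2 fold change was -1.26 (SE 0.08, edgeR adjusted p = 8.58e-07), rank 436 from the lowest.

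Aim2, the DNA sensor of the inflammasome, went the other way. It had 2085 and 2054 UMIs in butyrate libraries, or 32.4 and 32.1 CPM, against 1299 and 1756 UMIs in control libraries, or 23.8 and 26.1 CPM. Both butyrate libraries were above both control libraries, by a modest margin (log2 fold change 0.37, SE 0.06, edgeR adjusted p = 2.51e-05).

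Ifi204, related to human IFI16, was scarce. It had 48 and 97 UMIs in butyrate libraries (0.746 and 1.51 CPM), against 9 and 31 UMIs in control libraries (0.165 and 0.461 CPM). Every butyrate library was above every control library, but the libraries of a group differed widely (log2 fold change 1.78 with SE 0.58, edgeR adjusted p = 0.0432). The call was lost without control replicate 1 (log2 fold change 1.28, edgeR adjusted p = 0.0760). The log2 fold change was 2.75 without control replicate 2, 1.19 without butyrate replicate 2 and 2.21 without butyrate replicate 1. Ifi207 had 0 and 1 UMI in butyrate libraries and 0 and 1 UMI in control libraries and was not tested, although its promoter window holds the exact element.

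Of the other genes of the cluster, Mndal and Ifi211 were tested. Mndal, which encodes a nuclear protein of the family, had 17.1 and 19.0 CPM in butyrate libraries and 63.0 and 63.6 CPM in control libraries (log2 fold change -1.81, SE 0.06, edgeR adjusted p = 9.46e-13). Its window around the element has the same letters as that of Ifi203, and the annotated exons of the pair share 37 bases. Ifi211 had 12 and 16 UMIs in butyrate libraries and 0 and 2 UMIs in control libraries (edgeR adjusted p = 0.000408). Ifi202b and Ifi205 had no UMI in any kept cell.

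UMIs of such close paralogues may be lost or assigned to the wrong gene, and the windows below do not tell these apart. Among 90-base windows in the last 500 bases of annotated transcripts, where this 3′ method reads, 37.1% of those of Ifi209 and 20.6% of those of Ifi214 occur exactly in the other gene of the pair. For Ifi206 the share was 12.1%, for Ifi208 7.87%, for Ifi213 7.54% and for Ifi203 1.05%, each with a family gene, pseudogene or predicted gene. Of the end windows of Aim2, Ifi204 and Ifi207, none occurred in another gene. Beyond the members, the share was 59.4% for Ifi211, with Ifi205 and Mndal, and 9.33% for Mndal. The shared Mndal windows occur in transcripts of Ifi203, Ifi204, Ifi205, Ifi211 or a predicted gene, so Ifi204 is not free of shared sequence. How reads from shared windows were counted was not checked, so the few Ifi211 UMIs remain uncertain.

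Genes around the cluster were taken by position, within 1 Mb of the members' span. Of 66 annotated genes, 39 were in the files and 7 were tested, all on the proximal side. The nearest tested gene, Dusp23, lay 718 kb from the span and the farthest, Pigm, 967 kb, so no closer flanking gene was tested. Flanking genes in the files that were not tested had too few counts. None of the 7 was lower, 5 were higher and 2 did not pass, with a median log2 fold change of 0.39. Of all genes tested, 36.0% were higher and 35.7% lower. Fcrl6, an Fc receptor-like gene, had 1.41 and 2.00 CPM in butyrate libraries and 0.129 and 0.149 CPM in control libraries (log2 fold change 3.59, edgeR adjusted p = 4.93e-08). Tagln2, an actin-binding protein gene, had 924 and 954 CPM in butyrate libraries and 790 and 805 CPM in control libraries (log2 fold change 0.24, edgeR adjusted p = 0.000142). Igsf9, an immunoglobulin superfamily gene, had 18 and 25 UMIs in butyrate libraries and 0 and 1 UMI in control libraries (edgeR adjusted p = 1.53e-05). Dusp23, a phosphatase gene, had a log2 fold change of 0.39 (edgeR adjusted p = 0.0149).

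**Figure D2:**
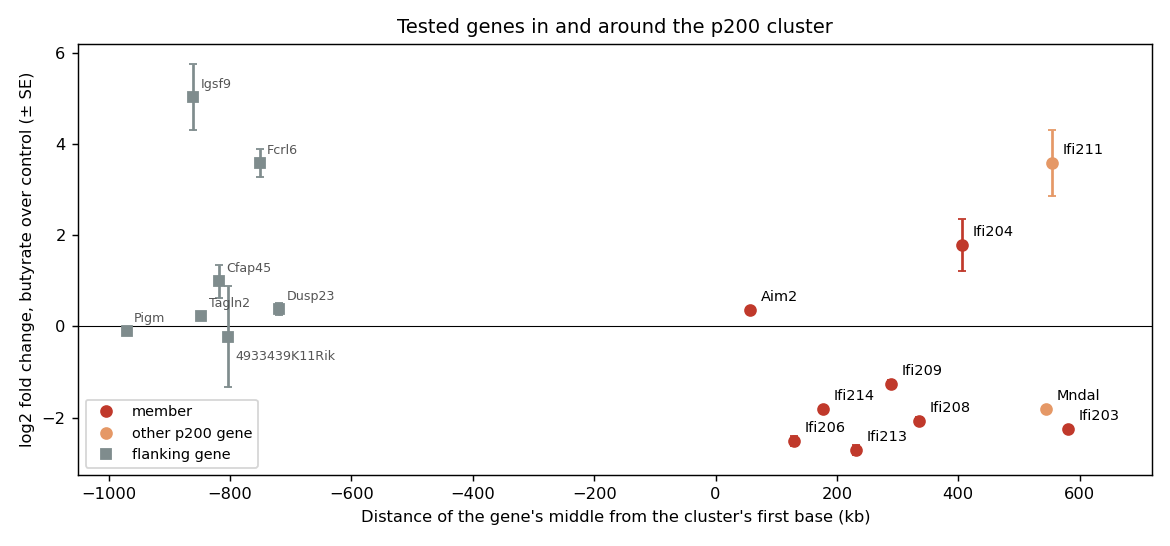
Log2 fold change (butyrate over control, with SE bars) of each tested gene of the cluster and its flanks, against the distance in kb of the gene's middle from the cluster's first base. The 6 lower members and Mndal lie at or below -1.26, with Aim2, Ifi204 and Ifi211 above 0 among them.

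Single cells were compared after thinning each cell at random to 8000 UMIs, which kept 2506 and 2596 butyrate cells and 1988 and 2520 control cells. At this depth Ifi203 was detected in 7.42 and 8.78% of butyrate cells and in 33.8 and 32.3% of control cells. The exact 95% binomial intervals of the Ifi203 shares ran from 6.43 to 8.52% and 7.72 to 9.94% in butyrate and from 31.7 to 35.9% and 30.5 to 34.2% in control. Ifi206 was detected in 3.27 and 4.93% of butyrate cells and in 25.1 and 26.4% of control cells. Both genes were thus found in several times fewer butyrate cells, in each mouse. Ifi209 was found in 13.7 and 16.3% of butyrate cells and 34.9 and 31.9% of control cells, Ifi208 in 3.39 and 4.43% against 16.1 and 17.1%, Ifi214 in 4.19 and 4.97% against 17.3 and 17.0%, and Ifi213 in 1.04 and 1.77% against 8.80 and 8.65%. Aim2 was found in slightly more butyrate cells, 20.4 and 21.1%, than control cells, 16.7 and 17.1%. Ifi204 was found in 0.519 and 1.35% of butyrate cells, and in 0 of 1988 (a limit of 0.151%) and 0.476% of control cells. With 2 libraries a group, an exact two-sided permutation test cannot give a p below 0.333, and it gave 0.333 for each of these 8 members.

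Without thinning, Ifi203 was detected in 18.6 ± 0.451% of butyrate cells and 53.3 ± 1.79% of control cells, and Aim2 in 48.7 ± 1.51% of butyrate cells and 39.7 ± 0.580% of control cells (SD, n = 2 each). For each of the 6 lower members, cells in which it was found held fewer of its UMIs on average in both butyrate libraries than in both control libraries; the 2 with the highest such means in control are given here. A cell positive for Ifi203 held 1.17 and 1.15 of its UMIs on average in butyrate and 1.60 and 1.69 in control, at 8000 UMIs per cell. A cell positive for Ifi209 held 1.24 and 1.27 in butyrate and 1.64 and 1.62 in control. Aim2-positive cells did not show this, with 1.18 and 1.18 Aim2 UMIs in butyrate and 1.17 and 1.16 in control. At such sparse counts, the share of positive cells and the UMIs per positive cell both fall when the mean level falls. Neither value therefore separates fewer expressing cells from less RNA per cell.

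Detection of several of the 6 lower members in the same cell was more frequent in control. At least 2 of them were detected in 5.35 and 8.40% of butyrate cells and 38.3 and 38.1% of control cells. At least 3 were detected in 1.28 and 2.08% of butyrate cells, against 20.3 and 19.1% of control cells. Cells with none of the 6 made up 73.9 and 70.0% of butyrate cells and 35.1 and 35.3% of control cells. These 6 were grouped here by their direction in the same libraries, so the counts describe them and test nothing. The level expected from each member's own share of cells was not computed. The counts therefore do not show whether the members go together within cells.

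**Figure D3:**
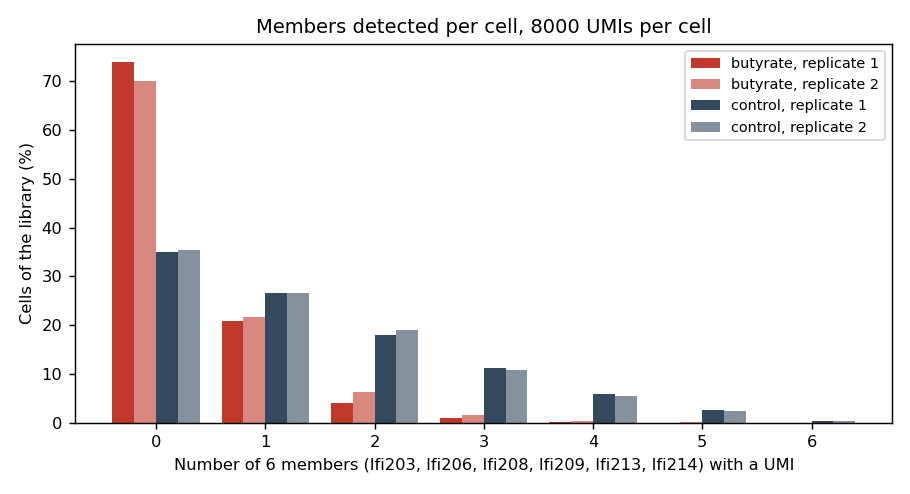
Share of the cells of each library, in percent, by how many of the 6 lower members had a UMI at 8000 UMIs per cell. Cells with 0 members detected make up 73.9 and 70.0% of the butyrate libraries and 35.1 and 35.3% of the control libraries.

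Free RNA could place these UMIs in cells that do not express the genes. Droplets with at most 100 UMIs held the members at a summed 68.0 and 88.7 unscaled CPM in butyrate and 243 and 273 in control, close to the 73.7 and 82.2 in kept butyrate cells and 222 and 228 in kept control cells. Per droplet of 100 UMIs this comes to at most 0.00680 and 0.00887 member UMIs in butyrate and 0.0243 and 0.0273 in control. A kept cell held a mean of 1.99 and 2.11 member UMIs in butyrate and 5.51 and 5.39 in control.

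Across control cells, the genes whose UMIs followed the summed members most closely were Ms4a4b and Ms4a6b, which encode membrane proteins of T cells, B2m, the light chain of class I molecules, and the interferon-induced Epsti1 and Ifi27l2a. Their mean Pearson correlations over the 2 control libraries were 0.47, 0.43, 0.40, 0.39 and 0.39, among 6417 genes compared. In butyrate cells the closest of 5869 genes were Btg1, Pdcd4, Samhd1, Egr1 and Btg2, at 0.18, 0.17, 0.17, 0.16 and 0.16. Aim2 made up more of the summed members in butyrate cells. Its mean was 0.241 and 0.249 UMIs per butyrate cell, beside 0.385 and 0.487 for the 6 lower members together. In control cells Aim2 had 0.195 and 0.198, beside 1.97 and 1.95. The cells of a library share its depth and preparation, and fewer member UMIs were present in butyrate cells. Neither the sizes of these correlations nor the genes named are therefore compared between groups.

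Members were also followed in cells with and without detected transcripts of proliferating cells. A lack of such UMIs does not establish that a cell was not dividing. Cells without a UMI of Mki67 or Top2a, transcripts of proliferating cells, numbered 354 and 419 in butyrate and 282 and 366 in control at 8000 UMIs. Cells with such a UMI made up 85.9 and 83.9% of butyrate cells and 85.8 and 85.5% of control cells. Among negative cells, 6 members were lower and 1, Aim2, was higher in butyrate (25.4% of all genes tested there were lower). Ifi204 had too few UMIs to be tested in negative cells, 5 and 27 in butyrate and 2 and 4 in control. Among positive cells, 6 were lower and 2 higher (35.4% of all genes were lower).

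In control libraries, the 6 lower members had higher levels in negative than in positive cells. Ifi203 stood at 15.2 and 19.9 CPM in negative butyrate cells and 113 and 114 CPM in negative control cells, and at 8.55 and 8.84 CPM in positive butyrate cells and 40.5 and 41.2 CPM in positive control cells. Ifi213 stood at 2.56 and 3.47 CPM in negative butyrate cells and 29.6 and 31.0 CPM in negative control cells. In positive cells Ifi213 had 1.03 and 1.07 CPM with butyrate and 6.23 and 6.59 CPM in control. Negative cells thus held 4.74 and 4.70 times the Ifi213 level of positive cells in the control libraries, and 2.49 and 3.25 times in the butyrate libraries. Aim2 ran the other way in control, with 34.0 and 33.8 CPM in negative butyrate cells and 19.3 and 21.0 CPM in negative control cells, and with 30.3 and 29.9 CPM in positive butyrate cells and 23.7 and 25.9 CPM in positive control cells.

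The difference of the butyrate effect between the classes was tested as an interaction with the library as a block, where 23.1% of 12764 genes passed. It passed for 4 members. The decrease was larger in negative than in positive cells for Ifi206 (log2 fold changes -3.14 and -2.41), Ifi203 (-2.68 and -2.20) and Ifi209 (-1.70 and -1.20), and the increase of Aim2 was larger in negative cells (0.76 and 0.32). For Ifi213 (-3.30 and -2.58, edgeR adjusted p = 0.0528), Ifi208 (-2.51 and -2.03, 0.0760), Ifi214 (-2.12 and -1.77, 0.147) and Ifi204 (0.902) the difference did not pass.

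**Figure D4:**
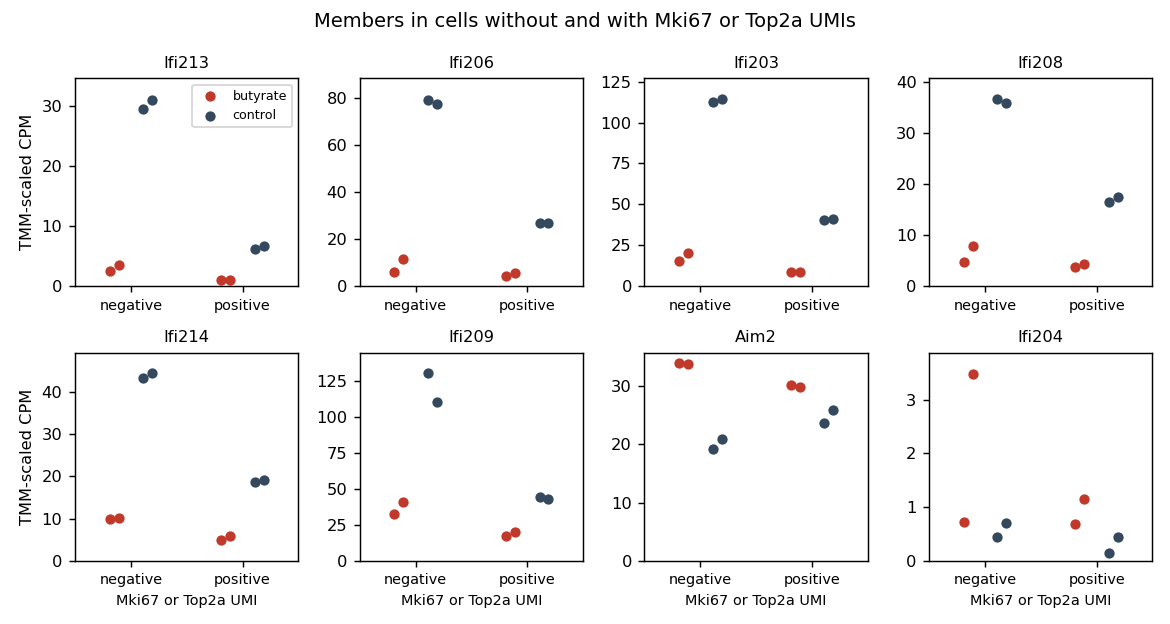
TMM-scaled CPM of 8 members in cells without (negative) and with (positive) a UMI of Mki67 or Top2a, 1 point per library, butyrate left of control; each panel has its own axis starting at 0. Control points of the 6 lower members are highest in negative cells, as for Ifi203 with 113 and 114 CPM.

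Other genes of the interferon and DNA sensing pathways were read from lists. Beside the counts of this list and of those that follow, 35.7% of all genes tested were lower and 36.0% higher. Of 18 interferon receptor and signalling genes, all tested, 9 were lower, 3 higher and 6 did not pass, with a median log2 fold change of -0.31. Ifnar1, a chain of the type I interferon receptor, had 25.2 and 26.1 CPM in butyrate and 41.1 and 38.3 CPM in control (log2 fold change -0.63, edgeR adjusted p = 5.29e-08). Ifngr1, of the interferon gamma receptor, had a log2 fold change of -0.58 and Irf7, a factor that amplifies interferon responses, of -1.29. Irf8, another interferon regulatory factor, was higher, with 135 and 139 CPM in butyrate and 62.4 and 63.6 CPM in control (log2 fold change 1.12, edgeR adjusted p = 9.31e-12). Irf9 and Stat2, which transmit the type I interferon signal to the nucleus and are named for that role, were lower, with log2 fold changes of -0.82 and -0.48.

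Of 38 other interferon-induced genes listed, 33 were tested, of which 21 were lower, 5 higher and 7 did not pass, with a median log2 fold change of -0.73. Dtx3l and Parp14, which act in ADP-ribosylation and ubiquitination, had log2 fold changes of -1.20 and -0.98, and Xaf1, a pro-apoptotic gene, of -1.62. Some genes of this list, chosen after their values were seen, fell as far as the lower members or further. Rtp4 (-3.92) fell further than any member, and Slfn2 (-2.06) and Samd9l (-1.95) fell within the range of the lower members. Zbp1, a sensor of Z-form nucleic acids, was higher, with 35.2 and 35.6 CPM in butyrate and 12.9 and 14.5 CPM in control (log2 fold change 1.36, edgeR adjusted p = 5.02e-11). Genes induced by interferon thus moved in both directions. The control libraries differed from each other for some genes of this list, chosen after their values were seen: Ifit1 had 0.559 and 0.437 CPM in butyrate and 0.863 and 2.51 CPM in control, and Ifi27l2a had 46.6 and 53.4 CPM in butyrate and 135 and 186 CPM in control.

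Of 20 DNA sensing and inflammasome genes listed, 17 were tested, of which 9 were lower, 6 higher and 2 did not pass, with a median log2 fold change of -0.14. Pycard, the adaptor that joins Aim2 to caspase-1, had 275 and 288 CPM in butyrate and 144 and 149 CPM in control (log2 fold change 0.94, edgeR adjusted p = 8.21e-11). Tmem173, which encodes STING, had 23.9 and 23.6 CPM in butyrate and 48.5 and 49.8 CPM in control (log2 fold change -1.05, edgeR adjusted p = 7.90e-11). Adar, an RNA-editing enzyme, had a log2 fold change of -0.95, and Rnaseh2c, a subunit of ribonuclease H2, of 0.49. Other inflammasome genes, chosen after their values were seen, differed in direction: Casp1 (-0.48) and Gsdmd (-0.52), the pore-forming substrate of caspase-1, were lower, Il18 (2.31) was higher, and Il1b had no UMI in any library.

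Of 17 genes reported as partners or targets of p200 proteins, 9 were higher, 6 lower and 2 did not pass, with a median log2 fold change of 0.18. Cdkn1a, a cell cycle inhibitor, had 212 and 228 CPM in butyrate and 50.0 and 53.3 CPM in control (log2 fold change 2.09, edgeR adjusted p = 1.34e-13). Nfkb1 had a log2 fold change of 0.82, Id1, an inhibitor of helix-loop-helix factors, of 3.26, and Ubtf, a factor of ribosomal RNA transcription, of -0.80.

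**Figure D5:**
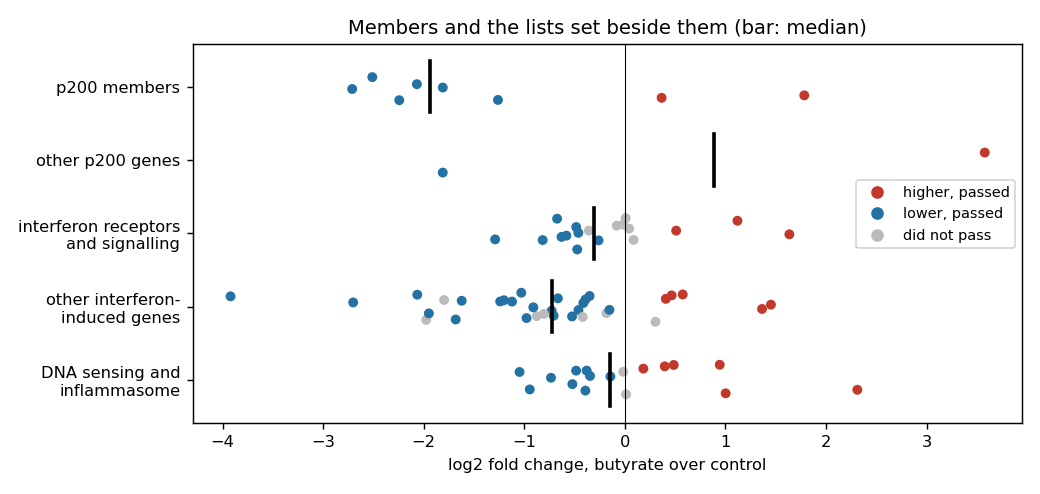
Log2 fold change (butyrate over control) of each tested gene of the members and of 4 lists, 1 point per gene, coloured by its call; black bars are medians. The member median lies at -1.94, those of the interferon signalling, interferon-induced and DNA sensing lists at -0.31, -0.73 and -0.14.

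The labelled cell type was checked with marker genes. All 14 CD8 T cell markers were tested, of which 7 were lower, 4 higher and 3 did not pass, with a median log2 fold change of -0.10. They summed to 11571 and 12225 CPM in butyrate and 9122 and 9312 CPM in control, most of it from Trbc2, with 7880 and 8199 CPM in butyrate and 5010 and 5138 CPM in control. Markers of other cells also moved with the treatment. The 13 myeloid markers summed to 15.4 and 17.4 CPM in butyrate and 3.25 and 4.30 CPM in control, with Adgre1, C1qa, C1qb, C1qc and S100a9 at 0 in every library. The 11 dendritic markers summed to 45.2 and 51.9 CPM in butyrate and 34.1 and 29.8 CPM in control, with Clec9a and Siglech at 0. The 10 B cell markers summed to 61.9 and 61.8 CPM in butyrate and 142 and 145 CPM in control. Most of that was Ighm, with Pax5 at 0 and Ms4a1 at no more than 1 UMI in any library. The 7 NK markers summed to 169 and 194 CPM in butyrate and 137 and 155 CPM in control. Of the tested markers, 3 of 4 myeloid, 7 of 8 dendritic, 3 of 5 B cell and 2 of 5 NK markers were higher and 2 B cell markers lower. The 6 CD4 or regulatory T cell markers summed to 107 and 129 CPM in butyrate and 108 and 104 CPM in control, with Cd4 at 33 and 40 UMIs in butyrate and 3 and 1 UMIs in control. The 7 erythroid or platelet markers stayed under 1 CPM in sum in every library. The part of these markers in the member results was not tested.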

How the data were processed

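The deposited files hold raw UMI counts per gene and droplet barcode. Per the submitters' processing notes, Cell Ranger 4, Seurat 4.3 and mm10 were used; no source used here gives the annotation release or says whether introns were counted. The members and lists were chosen with earlier results of these data known.

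Cells were barcodes with at least 10% of the 99th percentile of UMIs among the top 3000 barcodes (limits of 6526 and 6202 UMIs in butyrate and 6601 and 6644 in control), at least 500 genes and under 10% mitochondrial UMIs. The last filter removed 63 and 92 butyrate and 217 and 295 control barcodes. No doublet caller was used; an alternative left out cells above the 98th percentile of UMIs. Sums of UMIs over the kept cells were compared by edgeR 4.0.16, run in R 4.3.3 (TMM, filterByExpr, robust quasi-likelihood F test, Benjamini-Hochberg, threshold 0.05), with the group as the only term; the SE was computed as the size of the log2 fold change over the root of F. The script was tested on simulated data. Exact binomial intervals and limits for 0 cover counting error only.

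Labels give same-numbered libraries the same mouse, so the numbers pair them; their deviations from the group means correlated at 0.13 across 13487 genes (Spearman 0.06). Alternatives were other scalings (DESeq2 1.42.0 among them), filters, cell limits, thinning, the mouse as a block and leaving out each library. Named genes were all members, tested cluster genes, up to 4 tested genes with the smallest p of each list and of the flanks, and the 5 most alike genes; exceptions are marked in the text. Of the listed symbols, 7 of other cluster genes, 2 interferon-induced and 1 of DNA sensing were not matched and not used here. Some genes of the lists are not reported here by name.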

Additional observations from a re-analysis of the deposited data

Results flagged for a closer look

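The effect of butyrate differed between cells with and without a UMI of Mki67 or Top2a for 4 members, by the interaction test described above. Given as the log2 fold change in positive minus that in negative cells, the difference was 0.72 for Ifi206 (SE 0.16, edgeR adjusted p = 0.00105), 0.46 for Ifi203 (SE 0.12, edgeR adjusted p = 0.00639), 0.48 for Ifi209 (SE 0.10, edgeR adjusted p = 0.000467) and -0.47 for Aim2 (SE 0.13, edgeR adjusted p = 0.00807). The direction was that of a larger change, downward for the first 3 and upward for Aim2, in the negative cells of these libraries. Ifi213 had a difference of 0.71 that did not pass at 1 UMI and one of 0.76 that passed (edgeR adjusted p = 0.0273) when positive cells needed 2 UMIs.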

How the results depend on the processing

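Under 13 alternatives the 6 lower members kept their direction and passed, and so did Aim2 (log2 fold change 0.17 to 0.51). Ifi213 ranged from -2.91 to -2.61 and Ifi209 from -1.46 to -1.14. Only 1 member, Aim2, was higher, in place of 2, when scaling used library totals alone, when control replicate 1 was left out, and when cells were thinned to 8000 UMIs; leaving out each library in turn gave 1 to 2 higher members. Ifi204 was the one lost, with adjusted p of 0.0643, 0.0760 and 0.172 under these settings; it passed in 10 of 13, and the cause was not tested. Library totals alone moved the median over all genes to -0.21 (log2), and Aim2 remained above 0. With the mouse as a replicate block, 4958 genes were higher and 4931 lower, with 6 members lower and 2 higher; the block changed no call of a member. Members with few UMIs, Ifi204 and Ifi207, are limited by depth, and 2 mice limit every comparison.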
